A study of Mus musculus with 3 samples.

Results

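Msx1, Msx2, Dlx3, Dlx5, Sp6, Runx1, Runx2, Satb1 and Lef1 are transcription factors with known roles in the tooth, and their transcripts were followed in RNAseq of the mouse incisor enamel organ (EO). The genes were chosen by name, as the rows of the deposited count table that carry these symbols, and all 9 were found among the 20937 genes listed. There were 3 libraries, each from male mice aged 4 weeks and 1 for each genotype. Stim1 cKO was AmelX-iCre+; Stim1 fl/fl, Stim1 HT was AmelX-iCre+; Stim1 fl/wt, and Stim1 Ctrl was AmelX-iCre-; Stim1 fl/fl. Every library therefore carried at least 1 floxed Stim1 allele, and both Stim1 cKO and Stim1 HT carried Cre. The Cre is driven by the amelogenin promoter, so recombination takes place in ameloblasts, whereas the RNA was taken from the whole EO. The design asks which transcripts differ when STIM1, the endoplasmic reticulum sensor that opens store-operated calcium entry, is lost from ameloblasts. With no second library of any genotype, the spread between mice of the same genotype is not known, and a test can draw only on the spread of Stim1 HT and Stim1 Ctrl, whose genotypes are not the same. The libraries are called cKO, HT and Ctrl from here on, and sets of 3 values are given in that order.

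The tooth arises from an exchange of signals between the dental epithelium, which gives the EO and its ameloblasts, and the dental mesenchyme, which gives the odontoblasts and pulp. BMP, FGF, WNT and ectodysplasin ligands carry signals between and within these layers, and the factors studied here are among the nuclear effectors of that exchange. Msx and Dlx proteins are homeodomain factors that bind short AT-rich sites, Runx proteins bind DNA with their partner CBFB, Sp6 is a zinc finger protein that binds GC-rich sites, Lef1 carries the signal of beta-catenin in the WNT pathway, and Satb1 folds chromatin around AT-rich DNA. The mouse incisor grows throughout life, so its EO holds stem cells, secretory-stage ameloblasts that lay down amelogenin, ameloblastin and enamelin, and maturation-stage ameloblasts that harden the enamel.

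The 250 bases before annotated starts were read from RefSeq (GRCm38.p6) to show the DNA that bears on these factors. Such windows were found for Msx1, Msx2, Runx1, Runx2, Satb1 and Lef1, 14 windows for 6 of the 9 genes. The windows of the 2 Runx1 starts are shown because Runx1 was the member with the largest ratio above both controls and its gene count sums over both starts. The window of Runx2 is shown because it was the 1 window of the 14 that held the Runx letters. Those of Amelx and Ambn, the amelogenin and ameloblastin genes, are shown because their transcripts were far lower in cKO and both genes are textbook targets of tooth homeodomain factors. Each is written 5′ to 3′ on the strand of its gene, with capitals for matches on either strand to TAATT (homeodomain core), TGTGGT (Runx), CTTTGA (LEF/TCF) or GGGCGG (GC box).
Runx1 distal start, chr16:92826075-92826324, minus strand: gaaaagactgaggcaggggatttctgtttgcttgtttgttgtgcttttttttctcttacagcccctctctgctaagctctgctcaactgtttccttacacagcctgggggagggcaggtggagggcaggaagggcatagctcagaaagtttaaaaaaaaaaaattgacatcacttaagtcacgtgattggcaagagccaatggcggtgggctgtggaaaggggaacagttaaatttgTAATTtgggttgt
Runx1 proximal start, chr16:92697330-92697579, minus strand: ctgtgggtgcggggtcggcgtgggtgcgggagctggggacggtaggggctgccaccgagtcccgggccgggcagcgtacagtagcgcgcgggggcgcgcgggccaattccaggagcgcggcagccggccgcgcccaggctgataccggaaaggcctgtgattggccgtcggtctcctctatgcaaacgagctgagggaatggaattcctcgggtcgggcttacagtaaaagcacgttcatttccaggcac
Runx2, chr17:44814628-44814877, minus strand: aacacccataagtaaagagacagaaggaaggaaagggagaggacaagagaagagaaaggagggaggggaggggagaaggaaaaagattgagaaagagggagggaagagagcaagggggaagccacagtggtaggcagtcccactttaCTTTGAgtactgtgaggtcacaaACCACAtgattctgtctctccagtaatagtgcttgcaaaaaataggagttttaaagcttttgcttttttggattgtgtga
Amelx, chrX:169187210-169187459, minus strand: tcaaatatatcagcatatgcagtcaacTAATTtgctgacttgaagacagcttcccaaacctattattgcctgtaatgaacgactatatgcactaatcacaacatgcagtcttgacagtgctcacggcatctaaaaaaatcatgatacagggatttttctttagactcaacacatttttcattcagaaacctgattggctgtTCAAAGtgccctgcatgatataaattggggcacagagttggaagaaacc
Ambn, chr5:88455741-88455990, plus strand: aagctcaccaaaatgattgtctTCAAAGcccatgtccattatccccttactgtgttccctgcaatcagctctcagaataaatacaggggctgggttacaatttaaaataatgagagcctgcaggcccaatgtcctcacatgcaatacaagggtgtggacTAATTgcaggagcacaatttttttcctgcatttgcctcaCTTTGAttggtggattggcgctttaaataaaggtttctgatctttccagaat

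TAATT was found in 25.0% of 32851 RefSeq windows of the same length and in 4 of the 14 windows of these factors. TGTGGT was found in 14.0% of all windows and in 1 of the 14, and CTTTGA in 13.8% of all windows and in 2 of the 14. GGGCGG was found in 32.7% of all windows and in 6 of the 14. Lef1 and Satb1 gave most of the 14 windows, and some windows of each gene overlap. The same GGGCGG of Lef1 was therefore counted in more than 1 window. The Amelx window held 1 homeodomain core and 1 LEF/TCF match, and the Ambn window held 1 and 2. The window of Enam, the enamelin gene, is not shown. Enam was also far lower in cKO, and its window held 0 homeodomain cores and 1 LEF/TCF match. The proximal Runx1 window held none of the 4 motifs. A match describes letters in a window and not a bound site, and counts per gene do not tell which Runx1 start was used.

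Total counts were between 20216507 and 28265960 per library, and 3 counts corresponded to between 0.117 and 0.152 CPM, which are counts relative to the library total, here scaled with the TMM factors of edgeR. Stim1 itself was lower in cKO, at 72.8 CPM, than in HT at 129 CPM and Ctrl at 186 CPM (edgeR log2 fold change -1.11, adjusted p = 0.106). The labels call the cells ameloblasts. The 7 ameloblast markers summed to 4457 CPM in cKO, 31544 CPM in HT and 23273 CPM in Ctrl, most of it Amelx and Ambn. The 9 mesenchyme, bone and dentin markers summed to more than these in every library, from 36673 to 77462 CPM, so the libraries held other cell types too. The 8 epithelium markers summed to 3667, 2468 and 2569 CPM in the same order. Most of this sum was from the keratin genes Krt14 (1192, 573 and 464 CPM) and Krt5 (1310, 893 and 949 CPM). Of the 8, 5 were higher in cKO than in both controls, and Perp, Dsp and Pkp1 lay between the controls. The cKO library stood apart in its markers of other tissues. Retina markers, of which 3 of 5 were listed, summed to 781 CPM in cKO against 1.37 and 1.05 CPM in the controls. The 6 neuron markers summed to 605 CPM against 101 and 51.8 CPM. Cartilage (5 of 5 listed) summed to 82.8 CPM against 491 and 683 CPM, and skeletal muscle (6 of 6) to 3823 CPM against 14145 and 18160 CPM. Leukocyte and myeloid markers (6 of 6) summed to 123 CPM against 271 and 242 CPM, and lymphocyte markers (8 of 9) to 24.1 CPM against 18.0 and 3.77 CPM. Every listed gene had at least 1 count in every library, so no marker was at 0, and Cd8a, Pde6b and Rcvrn are not among the genes listed. Since cKO is a single library, no comparison can be repeated without it, and the part of these tissues in the results was not tested.

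**Figure D1:**
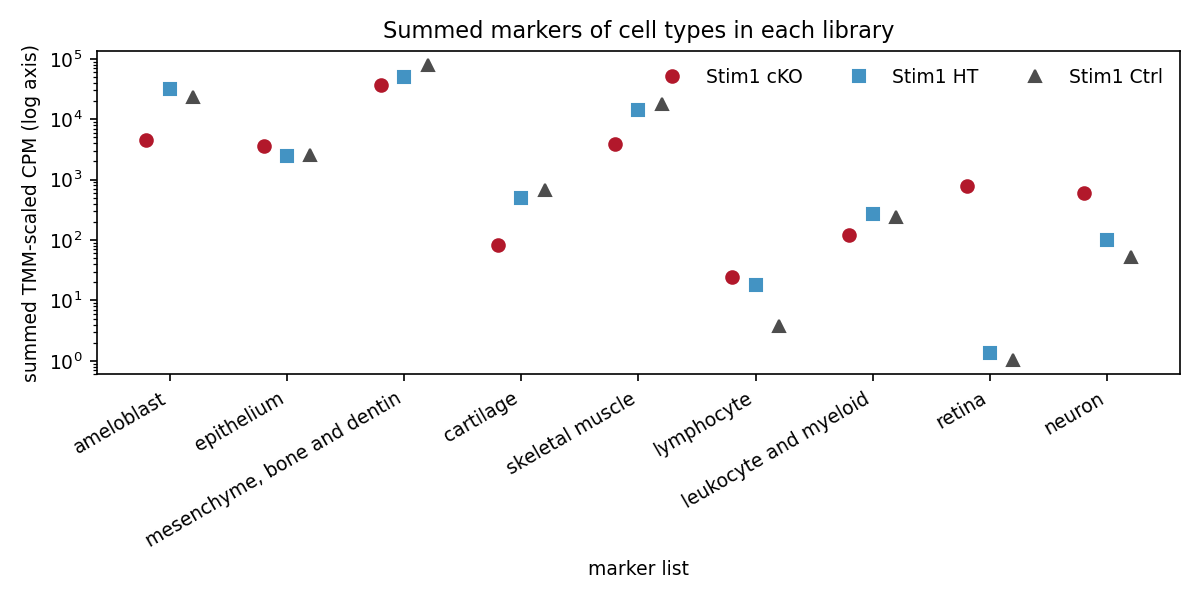
Summed TMM-scaled CPM (vertical log axis) of 9 lists of cell type markers in the Stim1 cKO (circles), Stim1 HT (squares) and Stim1 Ctrl (triangles) libraries. Stim1 cKO had the lowest sum for the ameloblast, the mesenchyme, bone and dentin, the cartilage, the skeletal muscle and the leukocyte and myeloid lists. For retina markers it stood at 781 CPM with both controls below 2 CPM.

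Of the 9 transcription factors, Sp6 and Dlx5 were lower in cKO than in both controls by more than 2-fold, and Runx1 was higher than both by more than 2-fold. Msx2 and Dlx3 were also lowest in cKO, and Msx1, Runx2 and Satb1 highest, all by less than 2-fold, while Lef1 lay between the controls. Relative to the summed epithelium markers, a sum mostly of Krt14 and Krt5, 7 of the 9 were lower in cKO than in both controls. Runx2, Satb1 and Lef1 were among the 7, while Msx1 lay between the controls and Runx1 stayed above both. The 4 factors higher than both controls compare with 43.6% of the 18702 genes tested, and the 4 lower than both with 42.1%. Among all genes tested 19.1% were over 2-fold higher than both controls and 8.23% over 2-fold lower, beside 1 and 2 of these 9. All 9 passed the filter on low counts.

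In the edgeR quasi-likelihood test of cKO against the grouped controls, none of the 9 was called at an adjusted p under 0.01 with more than 2-fold, where 14 of all genes tested, or 0.0749%, were called. At an unadjusted p under 0.05, 31.9% of all genes passed and so did Runx1, Dlx5 and Sp6, which is 3 of 9. DESeq2 at the same thresholds called 11.6% of the 17283 genes to which it gave an adjusted p, and of the 9 it called Sp6. The median log2 fold change of the 9 was 0.02, and that of all genes tested -0.01. The share of the 9 that passed the unadjusted level was thus close to that of all genes. Both tests had 1 residual degree of freedom, the difference between HT and Ctrl.

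**Figure D2:**
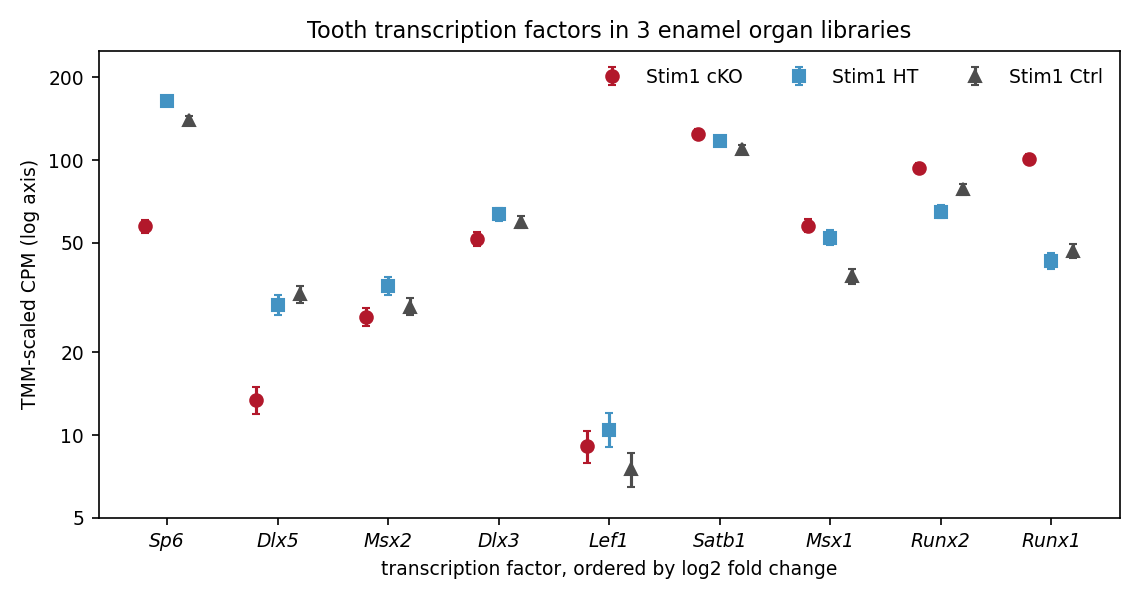
TMM-scaled CPM (vertical log axis) of the 9 transcription factors in each library, ordered by the log2 fold change of Stim1 cKO to the grouped controls, with 95% Poisson intervals of the count as bars. For Sp6 and Dlx5 the Stim1 cKO circle sits well below both controls (57.5 and 13.4 CPM), for Runx1 well above (101 CPM), and for Lef1 the 3 libraries lie between 7.50 and 10.5 CPM.

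Sp6, also called epiprofin, is a zinc finger factor of the dental epithelium without which ameloblasts fail to differentiate. It lies on chromosome 11 from 97013394 to 97024734 on the plus strand (GRCm38, GENCODE M21). Sp6 had 1392 counts in cKO, 3228 in HT and 3607 in Ctrl. Scaled, this was 57.5 CPM (95% Poisson interval 54.5 to 60.6), 164 CPM (158 to 169.6) and 140.2 CPM (136 to 145). The cKO value was far below both controls, and the intervals, which cover counting error only, did not overlap. The mean of the controls was 2.64-fold the cKO level, a log2 fold change of -1.40 (edgeR adjusted p = 0.0489), and 6.16% of all genes tested had a lower fold change. DESeq2 gave -1.43 with a standard error of 0.331 and an adjusted p of 0.000264, and over DESeq2, the other scalings with factors from edgeR and TMM factors taken before the filter the adjusted p lay between 0.000264 and 0.0749. HT was slightly above Ctrl, with a log2 ratio of 0.23 (95% counting interval 0.16 to 0.29). Of the 3841 exon bases of Sp6, 3329 overlap Gm11532 on the opposite strand. Gm11532 had between 10 and 16 counts in a library, and whether reads were counted by strand is not given in the sources used here.

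Sp6 was low in cKO while Trp63, a factor that marks basal epithelium, was not. Trp63 was at 88.9 CPM in cKO, 73.1 in HT and 76.2 in Ctrl. Ratios of counts within 1 library need no scaling, and the pairs given here were chosen after their values were seen. There were 0.647 Sp6 counts for each Trp63 count in cKO (95% interval from the Wilson method 0.604 to 0.692), 2.24 in HT (2.11 to 2.39) and 1.84 in Ctrl (1.74 to 1.94). The ratio of Sp6 to Dlx3 was 1.11, 2.58 and 2.36. Both ratios were lowest in cKO. The ameloblast marker sum, of 7 genes, was 4457 CPM in cKO against 31544 and 23273 CPM and so was low in the same library as Sp6. Most of that sum was Amelx (2065, 20016 and 14088 CPM) and Ambn (1149, 9312 and 7071 CPM). Of the 7 markers, 4 were lower in cKO than in both controls. Another 2 were higher than both, Odam at 694, 196 and 75.1 CPM and Amtn at 149.7, 145 and 72.4 CPM. In bulk RNA fewer cells of a type and less RNA per cell cannot be told apart, and the part of ameloblast number in the level of Sp6 was not tested.

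Amelx stood further below its controls than Sp6 did. There were 35.9 Amelx counts for each Sp6 count in cKO (34.0 to 37.9), 122 in HT (118 to 126) and 100.5 in Ctrl (97.3 to 104). Against Dlx3, which differed little, the ratio of Amelx was 40.0 in cKO, 315 in HT and 237 in Ctrl.

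Dlx3 and Dlx5 belong to the distal-less homeodomain family. Mutations of Dlx3 in humans cause tricho-dento-osseous syndrome, which thins the enamel, and Dlx5 acts in the jaw, in bone and in the tooth germ. Dlx5, on chromosome 6 from 6877805 to 6882085 (minus strand), had 324 counts in cKO, 587 in HT and 836 in Ctrl. This was 13.4 CPM (12.0 to 14.9), 29.8 CPM (27.4 to 32.3) and 32.5 CPM (30.3 to 34.8). cKO was below both controls, whose intervals overlapped each other and not that of cKO. The controls averaged 2.33-fold the cKO level, with an edgeR log2 fold change of -1.22 (adjusted p = 0.0554), and 7.97% of all genes tested were lower on this scale. DESeq2 gave -1.25 with a standard error of 0.426 and an adjusted p of 0.0232, and over the same alternatives the adjusted p was between 0.0232 and 0.0881. Dlx5 was thus not called by either tool.

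Dlx3, on chromosome 11 from 95120119 to 95125296 (plus strand), had 1250, 1251 and 1529 counts in cKO, HT and Ctrl. The scaled values were 51.6, 63.5 and 59.4 CPM, lowest in cKO by a small margin. The edgeR log2 fold change was -0.25 (adjusted p = 0.509). Its sign rests on the scaling, since with library size alone it was 0.0045. The Dlx5 to Dlx3 ratio within a library was 0.259 in cKO (0.229 to 0.293), 0.469 in HT (0.425 to 0.518) and 0.547 in Ctrl (0.503 to 0.595), so that the members of this family did not stand in the same proportion in the 3 libraries. Dlx6, the neighbour of Dlx5 in the genome, was at 24.1, 31.5 and 27.4 CPM, and the Dlx5 to Dlx6 ratio was 0.556, 0.945 and 1.18. Among the other paralogs, Dlx2 was at 11.3, 20.9 and 21.1 CPM (edgeR log2 fold change -0.90, adjusted p = 0.125), Dlx1 at 17.4, 11.3 and 12.6 CPM, and Dlx4 at 6.40, 9.95 and 7.38 CPM. Dlx1 was highest in cKO and the others lowest. Dlx1, Dlx2, Dlx5 and Dlx6 are also expressed in inhibitory neurons, and 1 of their markers, Gad1, was at 42.0 CPM in cKO and 3.45 and 2.18 CPM in the controls. Its part in the Dlx values was not tested.

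Msx1 and Msx2 are homeodomain factors downstream of BMP signals. Msx1 acts mainly in the dental mesenchyme, where its loss halts the tooth germ, and Msx2 in the EO, where its loss gives defective enamel. Msx1, on chromosome 5 from 37820485 to 37824583 (minus strand), had 1400 counts in cKO, 1029 in HT and 972 in Ctrl, or 57.8, 52.2 and 37.8 CPM. HT lay nearer to cKO than to Ctrl. The log2 ratio of HT to Ctrl was 0.47 (0.34 to 0.59) and that of cKO to HT 0.15 (0.03 to 0.26), so the difference between the controls was the larger of these. The summed mesenchyme, bone and dentin markers were lowest in cKO, at 36673 CPM, and 7 of the 9 were lower in cKO than in both controls. The exceptions were Dspp, highest in cKO at 1264, 792 and 792 CPM, and Bglap, between the controls at 245, 300.5 and 111 CPM. The part of these tissues in the level of Msx1 was not tested. The edgeR log2 fold change was 0.36 (adjusted p = 0.427). Relative to the summed epithelium markers, the log2 ratio of cKO to the mean of the controls was -0.19.

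Msx2, on chromosome 13 from 53466884 to 53473074 (minus strand), had 650, 685 and 755 counts in cKO, HT and Ctrl. Scaled, it was at 26.9, 34.8 and 29.3 CPM, and cKO was within counting error of Ctrl (log2 ratio -0.13, interval -0.28 to 0.02). The edgeR log2 fold change was -0.26 (adjusted p = 0.520). Within a library the Msx1 to Msx2 ratio was 2.15 in cKO (1.96 to 2.36), 1.50 in HT (1.36 to 1.65) and 1.29 in Ctrl (1.17 to 1.42). Msx1 thus stood higher against Msx2 in cKO than in the controls, beyond counting error. The BMP ligands that act upstream of these genes were nearly level. Bmp4 was at 40.8 CPM in cKO, 41.9 in HT and 35.8 in Ctrl, and Bmp2 at 21.6, 22.2 and 20.8 CPM. Of their receptor genes, Bmpr1a was at 100.4 CPM in cKO, 157 in HT and 229 in Ctrl (edgeR adjusted p = 0.147). Bmpr1b (10.9, 11.4 and 12.9 CPM) and Bmpr2 (119, 102 and 138 CPM) differed less. Nog, which encodes the BMP antagonist noggin, was at 7.11, 12.6 and 14.7 CPM.

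Runx1 and Runx2 share the runt DNA-binding domain. Runx1 is best known from blood stem cells and is also expressed in the epithelium of hair follicles and of the incisor, and Runx2 is the main factor of osteoblasts, is expressed in dental mesenchyme and appears in maturation-stage ameloblasts. Runx1, on chromosome 16 from 92601466 to 92826149 (minus strand), had 2449 counts in cKO, 849 in HT and 1202 in Ctrl. Scaled, this was 101 CPM (97.2 to 105), 43.1 CPM (40.2 to 46.1) and 46.7 CPM (44.1 to 49.4). cKO was above both controls with no overlap of intervals, and the controls overlapped each other. The cKO level was 2.25-fold the mean of the controls, an edgeR log2 fold change of 1.17 (adjusted p = 0.0463), although 20.2% of all genes tested had a higher fold change. DESeq2 gave 1.14 with a standard error of 0.353 and an adjusted p of 0.0106, just above the threshold, and over the same alternatives the adjusted p was between 0.0106 and 0.0479.

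Runx1 was set beside markers of the cells that are known to express it. Krt14, a keratin of basal epithelium, was at 1192 CPM in cKO, 573 in HT and 464 in Ctrl. The ratio of Runx1 to Krt14 counts was 0.0849 in cKO (0.0814 to 0.0885), 0.0753 in HT (0.0702 to 0.0807) and 0.101 in Ctrl (0.0948 to 0.107). Measured against Krt14, cKO therefore lay between the controls. Against all 8 summed epithelium markers, by contrast, Runx1 kept a log2 fold change of 0.63. Krt14 is 1 of these 8 and, with Krt5, gave most of their sum. Csf1r, the receptor gene of macrophages, was at 33.7 CPM in cKO and 89.6 and 103 CPM in the controls, opposite to Runx1. The ratio of Runx1 to Csf1r counts was 3.00 in cKO, 0.481 in HT and 0.454 in Ctrl. Ptprc, which encodes the leukocyte antigen CD45, was at 19.2, 14.2 and 9.44 CPM, and the ratio of Runx1 to Ptprc counts was 5.27 (4.77 to 5.82), 3.03 (2.65 to 3.47) and 4.95 (4.31 to 5.68). The intervals of cKO and Ctrl overlapped on this ratio. The part of epithelial, leukocyte and neuronal cell numbers in the level of Runx1 was not tested.

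Runx2, on chromosome 17 from 44495987 to 44814797 (minus strand), had 2260, 1279 and 2014 counts in cKO, HT and Ctrl, or 93.4, 64.9 and 78.3 CPM. cKO was highest and Ctrl lay about midway on this scale, and the sign turned to -0.16 on the log2 scale relative to the epithelium markers. The edgeR log2 fold change was 0.38 (adjusted p = 0.361). The ratio of Runx1 to Runx2 counts was 1.08 in cKO (1.02 to 1.15), 0.664 in HT (0.609 to 0.724) and 0.597 in Ctrl (0.556 to 0.641). Runx3, the remaining paralog, was at 37.2, 10.6 and 13.1 CPM (edgeR log2 fold change 1.65, adjusted p = 0.0357). Cbfb, which encodes the partner of all 3 Runx proteins, was at 93.3, 117 and 123 CPM, lowest in cKO. The ratio of Runx1 to Cbfb was 1.08 in cKO, 0.367 in HT and 0.378 in Ctrl.

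Sp7, or osterix, which acts after Runx2 in osteoblasts and odontoblasts, was at 42.6 CPM in cKO, 107 in HT and 107 in Ctrl (edgeR log2 fold change -1.32, adjusted p = 0.0454). The ratio of Runx2 to Sp7 counts was 2.19 in cKO (2.04 to 2.36), 0.608 in HT (0.567 to 0.652) and 0.735 in Ctrl (0.694 to 0.778). Runx2 and Sp7 thus lay on opposite sides of their controls. The summed mesenchyme, bone and dentin markers were at 36673 CPM in cKO, 50323 in HT and 77462 in Ctrl, lowest in the same library as Sp7, and their part in these values was not tested. Exons of Runx2 share 519 of 8837 bases with the antisense gene Runx2os1, which had between 21 and 28 counts.

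Satb1 organises chromatin in T cells, in neurons and in epithelia. It lies on chromosome 17 from 51736187 to 51833290 (minus strand) and had 3025 counts in cKO, 2318 in HT and 2827 in Ctrl. The values of 125, 118 and 109.9 CPM were nearly level, with an edgeR log2 fold change of 0.14 (adjusted p = 0.745). Relative to the epithelium markers, the log2 ratio of cKO to the mean of the controls was -0.41. The log2 ratio of cKO to HT was 0.09 (0.01 to 0.16) and that of cKO to Ctrl 0.19 (0.11 to 0.26), and HT to Ctrl was 0.10 (0.02 to 0.18). The gap of cKO to Ctrl was the widest, and all were small.

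Lef1, the transcription factor that takes the tooth germ past the bud stage, had the lowest level per exon length of the 9 in every library. It lies on chromosome 3 from 131110471 to 131224356 (plus strand) and had 220, 206 and 193 counts in cKO, HT and Ctrl. The scaled values were 9.09 CPM (7.93 to 10.4), 10.5 CPM (9.08 to 12.0) and 7.50 CPM (6.48 to 8.64), with cKO between the controls and overlapping both. The edgeR log2 fold change was 0.02 (adjusted p = 0.980). The sign is not settled, since DESeq2 gave -0.01 with a standard error of 0.603, which leaves a wide range of differences undetectable. Its exons share 1208 of 8788 bases with the antisense gene Gm43352, which is not among the genes listed.

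The other LEF/TCF genes differed more than Lef1. Tcf7l2, which is also abundant in neurons of the thalamus and in glia, was at 199 CPM in cKO, 31.4 in HT and 34.4 in Ctrl (edgeR log2 fold change 2.60, adjusted p = 0.0154). Tcf7 was at 18.5, 39.2 and 35.9 CPM (edgeR log2 fold change -1.02, adjusted p = 0.0659). There were 21.9 Tcf7l2 counts for each Lef1 count in cKO (19.1 to 25.1), 3.00 in HT (2.56 to 3.51) and 4.59 in Ctrl (3.92 to 5.36). For Tcf7 to Lef1 the ratios were 2.04, 3.75 and 4.79. The neuron markers, 6 of 6 of them above both controls in cKO, moved with Tcf7l2, and their part in its level was not tested. Tcf7l1 was at 78.1, 47.1 and 58.6 CPM, and Ctnnb1, the gene of beta-catenin, at 504, 894 and 959 CPM (edgeR adjusted p = 0.161).

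**Figure D3:**
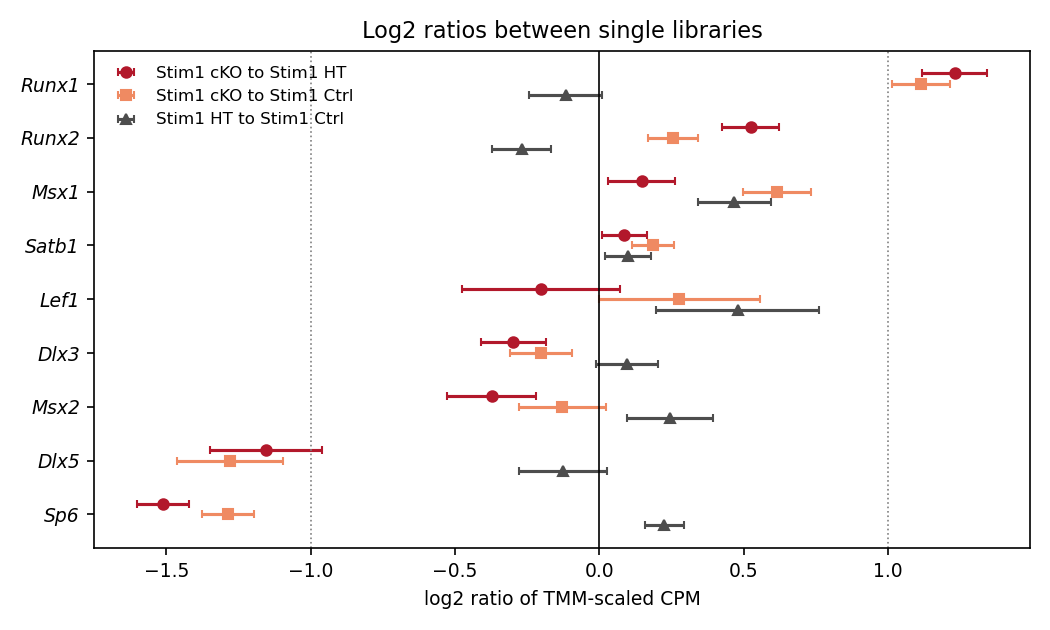
Log2 ratios of TMM-scaled CPM between pairs of single libraries (horizontal axis) for each of the 9 transcription factors, with 95% counting intervals as bars and dotted lines at 2-fold. Runx1 (1.23 and 1.11), Dlx5 (-1.15 and -1.28) and Sp6 (-1.51 and -1.29) pass the 2-fold lines against both controls, and the ratios of Stim1 HT to Stim1 Ctrl stay between -0.27 and 0.48.

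HT and Ctrl were also compared with each other, with no test since each is 1 library. They differ both in Cre and in the number of floxed alleles, which cannot be told apart here. None of the 9 factors differed by more than 2-fold, against 13.5% of all genes tested. The log2 ratios ran from -0.27 for Runx2 to 0.48 for Lef1. Even so, the counting interval of the ratio excluded 0 for 6 of 9, compared with 8 of 9 for cKO to HT and 7 of 9 for cKO to Ctrl. Differences of this size between 2 libraries thus exceed counting error also where cKO is not involved. The gap between the controls was the smallest of the 3 gaps for 4 of 9 factors, or 44.4%, and for 59.0% of all genes tested.

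To compare the factors with one another, counts were divided by exon length and scaled to the same sum in each library (TPM). In Ctrl, Sp6 was the most abundant at 109 TPM, followed by Dlx3 at 68.1, Dlx5 at 42.9 and Msx1 at 36.4 TPM. Msx2 at 26.7 and Runx2 at 26.4 TPM were next and close together, then Satb1 at 17.2, Runx1 at 11.6 and Lef1 at 2.55 TPM. HT also had Sp6 on top, at 119 TPM, with Dlx3 at 68.2, and Runx1 and Lef1 at the bottom, at 10.03 and 3.33 TPM. In cKO the order differed. Dlx3 led at 66.4 TPM and Msx1 followed at 62.6 TPM, with Sp6 at 50.2 TPM in the next place. Runx2 was at 35.4, Runx1 at 28.2 and Msx2 at 27.4 TPM, with Runx1 and Msx2 close together, and Satb1 was at 22.0 TPM. Dlx5, at 19.8 TPM, stood below all but Lef1, which was at 3.46 TPM. Runx1 was thus in the place before last in both controls and above Msx2, Satb1 and Dlx5 in cKO. These levels per length assume that all annotated exons of a gene are transcribed, which counts per gene do not show.

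**Figure D4:**
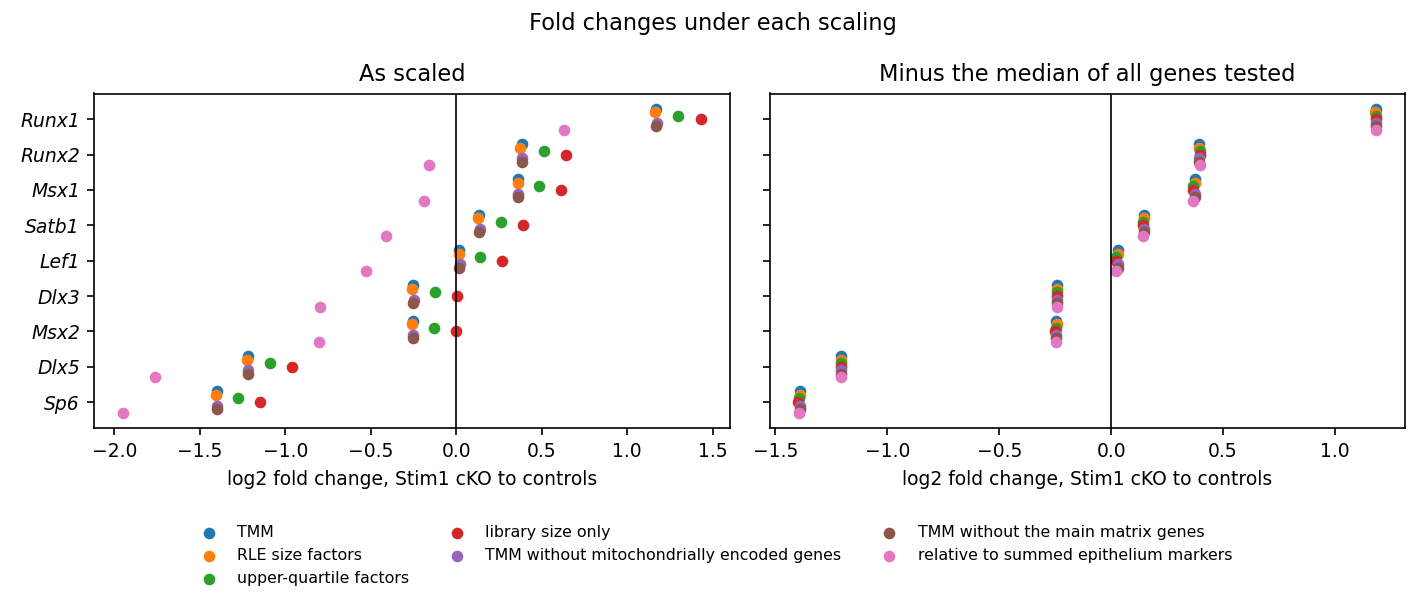
Log2 fold change of Stim1 cKO to the grouped controls (horizontal axes) for the 9 factors under 7 scalings, as scaled (left) and after subtracting the median of all genes tested under the same scaling (right). On the left the summed epithelium markers shift every factor to lower values and turn Msx1, Runx2, Satb1 and Lef1 negative. On the right the 7 points of each factor nearly coincide, which the subtraction brings about by arithmetic.

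The scaling sets where 0 lies. The median log2 fold change of all genes tested was -0.01 with TMM, 0.12 with upper-quartile factors, 0.25 with library size only and -0.55 when each library was scaled to its summed epithelium markers. Relative to that median, Sp6 was between -1.40 and -1.39 under all 7 scalings, Dlx5 at -1.21 and Runx1 at 1.18. Msx1 was between 0.36 and 0.38, Runx2 between 0.39 and 0.40, Satb1 between 0.14 and 0.15, Lef1 between 0.020 and 0.031, Dlx3 at -0.24 and Msx2 between -0.25 and -0.24. The 7 scalings were TMM, TMM without mitochondrially encoded genes, TMM without the main matrix genes, RLE, upper-quartile, library size only and the epithelium markers. Each sets 1 factor per library, so subtracting the median removes nearly all of its effect. The closeness of these values was thus fixed by arithmetic and is no test of the factors. Scaled to the epithelium markers without that subtraction, Sp6 was at -1.95, Dlx5 at -1.76, Msx2 at -0.80, Dlx3 at -0.79 and Runx1 at 0.63.

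**Figure D5:**
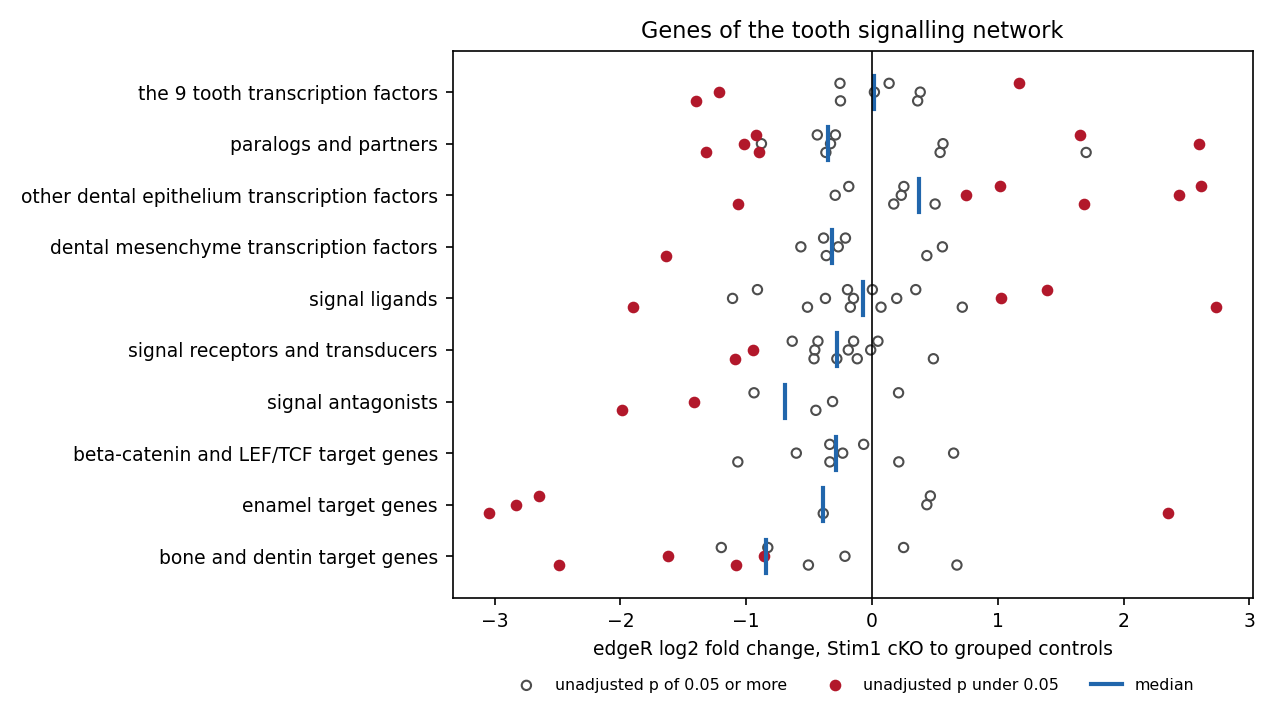
edgeR log2 fold change of Stim1 cKO to the grouped controls (horizontal axis) for the 9 transcription factors and for 9 lists of other genes of tooth signalling, with filled points at an unadjusted p under 0.05 and a bar at each median. Medians run from -0.84 for bone and dentin target genes to 0.38 for other dental epithelium transcription factors.

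Of the other genes of the tooth signalling network, 94 were tested, and edgeR called none of them. At an unadjusted p under 0.05, 11 were higher and 18 lower in cKO, beside 18.5% and 13.4% of all genes tested, and DESeq2 called 5 higher and 9 lower of the 92 with an adjusted p, beside 6.30% and 5.26% of all genes with one. The paralogs and partners described above had 2 higher and 4 lower of 14, with a median log2 fold change of -0.35. Of 12 other transcription factors of the dental epithelium, 5 were higher and 1 lower at this level, with a median log2 fold change of 0.38. Bcl11b, which acts in the labial epithelium of the incisor and also in neurons and T cells, was at 129 CPM in cKO and 22.0 and 20.1 CPM in the controls. Isl1 (39.2, 10.2 and 4.31 CPM) and the stem cell factor Sox2 (67.0, 29.8 and 11.9 CPM) were also highest in cKO (edgeR adjusted p = 0.0513 and 0.104). HT was above Ctrl for Isl1 and Sox2, with log2 ratios of 1.24 and 1.33. Both are expressed in retina and neurons, whose markers moved the same way. The part of retina and neurons in the levels of these genes was not tested. The rest of the 5 higher factors were Pitx1 (153, 77.3 and 74.1 CPM) and Foxo1 (140, 83.2 and 83.3 CPM), with the controls nearly level. Sox21, which keeps the EO in the enamel lineage, was at 20.8, 51.1 and 36.2 CPM (edgeR log2 fold change -1.07, adjusted p = 0.0934).

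Of 8 dental mesenchyme transcription factors 1 was lower at an unadjusted p under 0.05 and none was higher, with a median log2 fold change of -0.32. It was Barx1, a factor of molar mesenchyme, at 13.7 CPM in cKO, 41.8 in HT and 43.1 in Ctrl (edgeR log2 fold change -1.63, adjusted p = 0.0289). Pax9, which induces Bmp4 and works with Msx1, was at 33.9, 26.7 and 23.5 CPM. Prrx1 was at 163, 189.6 and 292 CPM. Among 16 signal ligands, 3 were higher and 1 lower, with a median of -0.07. Eda, the ectodysplasin gene, was at 7.27, 23.0 and 31.3 CPM (edgeR log2 fold change -1.90, adjusted p = 0.0403). Fgf9 was at 16.2, 6.35 and 6.02 CPM and Inhba, a subunit of activin, at 19.7, 9.49 and 9.91 CPM, both highest in cKO.

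Receptors and signal transducers had 2 lower and none higher of 13, with a median log2 fold change of -0.28. Besides Bmpr1a, the other was the WNT co-receptor gene Lrp5, at 51.4 CPM in cKO, 83.8 in HT and 135 in Ctrl. Both were also lower in HT than in Ctrl, with log2 ratios of -0.54 and -0.69. Of 6 antagonists, with a median of -0.69, 2 were lower, Dkk1 (4.83, 19.6 and 18.7 CPM) and Sfrp5 (4.17, 9.65 and 12.7 CPM), which both restrain WNT signals. Of the 8 target genes of beta-catenin and LEF/TCF, none passed in either direction, the median was -0.28, and Axin2, the most used readout of the pathway, was at 19.6, 20.3 and 29.2 CPM. Lef1 and these targets were therefore alike in not passing the test, which does not show that they were equal.

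The enamel genes that Msx2, Dlx3, Sp6 and Runx factors are known to act on had 1 higher and 3 lower of 7 at an unadjusted p under 0.05, with a median log2 fold change of -0.39. Amelx was at 2065 CPM in cKO, 20016 in HT and 14088 in Ctrl (edgeR log2 fold change -3.05, adjusted p = 0.0445). Ambn (1149, 9312 and 7071 CPM) and Enam (286, 1722 and 1856 CPM) were likewise far lower in cKO than in both controls. These 7 genes are also the ameloblast markers above. Odam, a protein of maturation-stage and junctional epithelium, was at 694, 196 and 75.1 CPM (edgeR log2 fold change 2.35, adjusted p = 0.0665). Mmp20, the protease of the secretory stage, was at 84.4, 123 and 98.4 CPM, and Klk4 and Amtn, of the maturation stage, were higher in cKO and HT than in Ctrl, with 29.0, 30.2 and 12.7 CPM and 149.7, 145 and 72.4 CPM. Of the bone and dentin genes, which Runx2, Dlx5 and Sp7 are known to act on, 4 of 10 were lower at this level and none higher, with a median of -0.84. Spp1, or osteopontin, was at 251, 1042 and 1780 CPM, and Dmp1 at 83.4, 223 and 291 CPM. Dspp, the main matrix gene of odontoblasts, was at 1264 CPM in cKO and 792 in each control, so the 2 genes of mature matrix, Dmp1 and Dspp, were on opposite sides.

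For each factor the gene of these lists with the most similar profile was sought, by the distance between centred log2(CPM + 1) values over the 3 libraries, among the 89 candidates that averaged 50 counts or more. Sp7 was nearest both to Sp6, at a distance of 0.169, and to Dlx5, at 0.148. Fgf9 was nearest to Runx1 at 0.154, and Pax9 to Msx1 at 0.201. Msx2 was nearest to Dlx6 (0.0425), Dlx3 to Phex (0.0316), Runx2 to Wnt7b (0.0476), Satb1 to Wnt4 (0.0554) and Lef1 to Wnt10a (0.128). With 3 libraries many genes share such a profile, and the smaller distances belong to factors that were nearly level.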

How the data were processed

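The authors trimmed the paired-end reads, aligned them with STAR to the mouse genome, and deposited 1 table of raw, unscaled read counts by gene symbol. FastQC, STAR and DESeq2 are named in the submitters' processing notes. The genome build, annotation, counting tool and strand setting are not given in the sources used here. The methods of the study name a NEBNext directional kit and the labels a SMARTER kit. In 25 rows, with 0.154% of the counts, the symbol had become a date. Genes without a count in any one library are not listed.

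Counts were tested with edgeR 4.0.16 in R 4.3.3 (filterByExpr, then TMM factors, quasi-likelihood test, Benjamini-Hochberg adjustment over 18702 genes) for Stim1 cKO against both controls as 1 group. The common dispersion was 0.106, the prior degrees of freedom 4.15 and the residual degrees of freedom 1. Calls needed an adjusted p under 0.01 and more than 2-fold, as in the study. Ratios between single libraries had no test. Values relative to the summed epithelium markers are log2 ratios of cKO to the mean of the controls, without a fit or a test. The alternatives were DESeq2 1.42.0, other scalings and filters, a threshold of 0.05 on the adjusted p, no minimum of fold change, and the loss of either control. TMM factors taken before the filter were added after the values were seen. Both tools were tested on simulated data. CPM intervals are 95% Poisson intervals and those of ratios rest on the Wilson method. Both cover counting error only. Positions and exon lengths are from GENCODE M21 (GRCm38), in which 20682 of 20937 symbols were found once. Python 3.11.15 with numpy 2.4.6, pandas 2.3.3, scipy 1.17.1 and matplotlib 3.10.9 was used.

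The genes named were the 9 factors, Stim1, all enamel targets, in each other list up to 4 genes with the largest absolute log2 fold change at a mean of at least 50 counts, the gene nearest to each factor, and markers. Other paralogs, partners, dental epithelium factors, ligands, receptors and targets named beside them fall outside this rule and were picked with their values in view. The members and lists were chosen with earlier results of these data known. Foxi3 is not among the genes listed. Some genes that this rule selects are not reported here.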

Additional observations from a re-analysis of the deposited data

How the results depend on the processing

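No paired analysis was possible because each genotype has 1 library, so the groups share no replicate pairs. The number of genes called, 14 with edgeR, was 1998 with DESeq2, 50 with RLE size factors, 138 with upper-quartile factors, 6 with library size only, 907 with no filter on low counts, 6 at a mean of at least 50 counts, 1811 at an adjusted p under 0.05 and, with TMM factors taken before the filter, 186. Of the 9 transcription factors none was called with edgeR, 1 with DESeq2 (Sp6) and 2 at an adjusted p under 0.05 (Sp6 and Runx1). The factors lower than both controls, 4 with TMM, were 2 with library size only and 7 relative to the summed epithelium markers, and those higher than both, 4 with TMM, were 1 relative to these markers. The sign turned for Lef1 with DESeq2 (-0.0084), with TMM factors taken before the filter (-0.014) and, of the values from -0.20 to 0.28 with either control left out, without Stim1 Ctrl (-0.20), for Dlx3 with library size only (0.0045), and relative to the epithelium markers for Msx1 (-0.19), Runx2 (-0.16), Satb1 (-0.41) and Lef1 (-0.53). The cause was not tested, except that the scalings shift the median of all genes. Sp6, Dlx5 and Runx1 kept their direction with DESeq2, under each scaling, with TMM factors taken before the filter, and without Stim1 HT or without Stim1 Ctrl. Not all stayed over 2-fold. Dlx5 was at -0.96 with library size only, and Runx1 at 0.63 relative to the epithelium markers. The other filters on low counts were run for counts of calls only. A fold change with 1 control library left has no test. Nothing here estimates the spread between mice of 1 genotype, and Lef1, at 193 to 220 counts, has the least depth.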
